A study of Mus musculus with 6 samples.

Results

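The genes described here encode the heterogeneous nuclear ribonucleoproteins (hnRNPs) and the SR proteins, the families of RNA-binding proteins that set which exons a cell keeps. They were taken from the count table of embryonic mouse cortex as every row whose symbol starts with Hnrnp, or with Srsf followed by a digit. The rule found 32 of the 17348 genes listed, 21 Hnrnp and 11 Srsf genes. Of these, 31 passed the filter on low counts (20 Hnrnp and 11 Srsf), among 13570 genes that passed, and Hnrnpa1l2-ps2 was the member that did not.

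Poly(A) RNA-seq was carried out on cortex at E18.5, shortly before birth, to ask how loss of Ybx1, a Y-box protein that binds RNA, alters the cortical transcriptome. The 3 control libraries (Ctrl, labelled WT) came from littermates. The paper calls them wild type in its RNA-seq methods, and elsewhere defines its controls as Ybx1 fl/fl, without Cre. The 3 knockout libraries (cKO) came from Nestin-Cre, Ybx1 fl/fl embryos, and both groups were on a C57BL/6J background. Nestin-Cre acts in neural progenitors and their progeny, so vessels, microglia and blood in the same tissue should have kept the gene. This was not measured by cell type. With controls that were Ybx1 fl/fl, Cre was present in 1 group only. The labels do not say whether a library held 1 embryo or several, so p-values measure the spread between these libraries.

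Total counts per library lay between 15091951 and 16885451, and 3 counts, taken as the detection floor, corresponded to 0.176 to 0.206 CPM (counts scaled for library size). Ybx1 fell from 1089 ± 182 CPM in Ctrl to 24.6 ± 0.519 CPM in cKO (SD, n = 3), which was 2.25% of the Ctrl level (log2 fold change -5.47, SE 0.16, adjusted p = 6.95e-07, edgeR quasi-likelihood test, Benjamini-Hochberg adjusted). Ybx1 and 4 Y-linked genes were among the 10 genes that passed adjusted p under 0.05. The Y-linked sum was 215 to 295 CPM in Ctrl and 0.929 to 1.47 CPM in cKO, so the sex of the embryos and the genotype cannot be told apart. Cortical markers were present in every library, with neuronal markers summing to 7348 to 9282 CPM in Ctrl and 7351 to 8361 CPM in cKO and progenitor markers to 1309 to 1572 and 1364 to 1438 CPM. None of the 13 progenitor and 10 neuronal markers passed the adjusted threshold by edgeR. Of the progenitor markers 5 lay above and 8 below 0, with a median log2 fold change of -0.07. Of the neuronal markers 3 lay above and 7 below 0, with a median of -0.05. Vessel and pericyte markers had 4 above and 1 below 0 (median 0.23), microglial markers 5 and 0 (0.08), and blood markers 2 and 3 (-0.04). None of these passed the adjusted threshold by edgeR. Among progenitor markers the groups did not overlap for Pax6, higher in cKO at an unadjusted p under 0.05, nor for Ccnb1, lower in cKO (log2 fold changes 0.31 and -0.23). For the pericyte marker Pdgfrb and the microglial markers Cx3cr1 and P2ry12 they did not overlap either, with cKO higher. Over all genes tested, the groups did not overlap for 14.3%, and 6.62% had an unadjusted p under 0.05 by edgeR. In bulk tissue, fewer cells of a type and less RNA per cell cannot be told apart.

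hnRNPs coat nascent pre-mRNA and often block the use of nearby splice sites, whereas SR proteins, which join an RNA recognition motif to a tail rich in arginine and serine, bind exonic enhancers and help the spliceosome define an exon. The balance between members of the families is known to shift exon choice, and many of their own transcripts carry poison exons through which the proteins limit their own amount. In the developing cortex, splicing changes markedly as progenitors become neurons. Ybx1 itself binds pre-mRNA as well as cytoplasmic mRNA, and the Y box for which it is named is the CCAAT box in its inverted form.

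Because the Y box is a promoter element, the start-site windows of 4 members are shown first: the most abundant of each family (Hnrnpa1 and Srsf5) and the one with the lowest fold change in each (Hnrnpa0 and Srsf3). The windows are RefSeq promoters of GRCm38.p6, 250 bases before to 50 bases after the annotated start, read 5′ to 3′ on the strand of the gene, and capitals mark CCAAT or its reverse complement ATTGG.
Hnrnpa1 (chr15:103240147-103240446, plus strand): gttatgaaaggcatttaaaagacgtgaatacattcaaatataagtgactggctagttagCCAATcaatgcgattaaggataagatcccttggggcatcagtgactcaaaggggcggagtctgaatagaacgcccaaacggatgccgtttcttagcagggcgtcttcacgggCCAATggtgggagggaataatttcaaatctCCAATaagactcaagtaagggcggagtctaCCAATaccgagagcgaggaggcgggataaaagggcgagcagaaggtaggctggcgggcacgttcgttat
Hnrnpa0 (chr13:58128507-58128806, minus strand): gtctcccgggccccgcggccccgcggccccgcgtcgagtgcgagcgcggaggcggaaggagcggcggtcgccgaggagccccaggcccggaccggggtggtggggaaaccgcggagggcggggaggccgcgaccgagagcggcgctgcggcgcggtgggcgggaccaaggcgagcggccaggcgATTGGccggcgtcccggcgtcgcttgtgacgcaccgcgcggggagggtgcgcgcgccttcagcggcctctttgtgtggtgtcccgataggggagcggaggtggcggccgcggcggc
Srsf5 (chr12:80945249-80945548, plus strand): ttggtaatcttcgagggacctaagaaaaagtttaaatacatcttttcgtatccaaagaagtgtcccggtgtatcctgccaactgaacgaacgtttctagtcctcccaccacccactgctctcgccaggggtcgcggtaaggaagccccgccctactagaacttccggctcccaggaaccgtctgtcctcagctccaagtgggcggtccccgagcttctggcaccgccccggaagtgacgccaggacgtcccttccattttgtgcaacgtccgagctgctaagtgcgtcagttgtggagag
Srsf3 (chr17:29032410-29032709, plus strand): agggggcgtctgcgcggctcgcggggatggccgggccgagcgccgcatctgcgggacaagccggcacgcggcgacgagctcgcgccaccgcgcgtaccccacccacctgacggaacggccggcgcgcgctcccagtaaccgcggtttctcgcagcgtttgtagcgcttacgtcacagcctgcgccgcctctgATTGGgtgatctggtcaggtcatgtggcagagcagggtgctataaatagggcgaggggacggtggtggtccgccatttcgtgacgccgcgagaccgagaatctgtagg

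The Hnrnpa1 window held 4 boxes, all as CCAAT, starting 191, 79, 49 and 19 bases before the start site. Hnrnpa0 held 1 ATTGG at 66 bases before its start and Srsf3 held 1 at 58 bases, while the Srsf5 window held none. Over the families, 13 of the 18 tested Hnrnp genes with a window held either form on at least 1 window (72.2%), against 4 of 11 Srsf genes (36.4%), which were Srsf1, Srsf2, Srsf3 and Srsf10. The share was 43.2% of the 10794 tested genes with a window and 37.4% of all 32851 windows. Windows for Hnrnpll and Hnrnpul2 were not used here. These are matches of letters and were not tested as binding sites. The paper found Ybx1 protein mainly in the cytoplasm of cultured cortical progenitors, and proposes that a role in transcription may be doubtful.

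Levels between genes were compared in TPM, which allow for transcript length as well as library size. Hnrnp transcripts made up 1.07% to 1.42% of all TPM in a library and Srsf transcripts 0.251% to 0.326%. The median member had 346 TPM among Hnrnp and 256 TPM among Srsf genes, and 15 Hnrnp and 8 Srsf genes ranked within the 1000 most abundant genes. A few members carried most of each family. The top 5 held 60.3% to 62.7% of the Hnrnp TPM and 66.7% to 68.6% of the Srsf TPM.

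**Figure D1:**
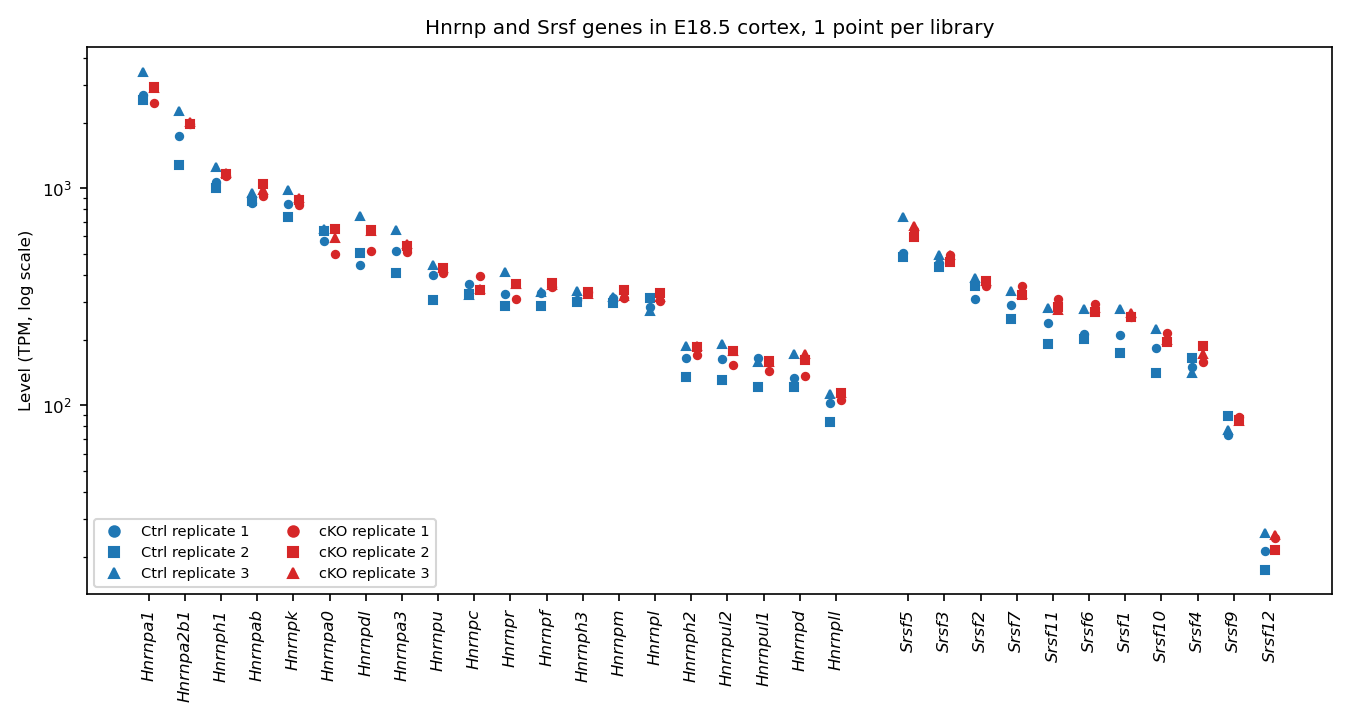
Level of each tested Hnrnp and Srsf gene in each library, in TPM on a log scale, with genes ordered by mean level within their family. Hnrnpa1 stood highest at a mean of 2836 TPM and Srsf12 lowest at 22.7 TPM, and the ranges of many genes next to each other in the order overlapped.

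Hnrnpa1, which represses the inclusion of many exons and shuttles between nucleus and cytoplasm, was the 18th most abundant gene of the table. Its levels were 2702, 2562 and 3437 TPM in Ctrl and 2480, 2925 and 2912 TPM in cKO. Ctrl replicate 3 was the highest library and cKO replicate 1 the lowest, and the groups overlapped. Its closest relative by level, Hnrnpa2b1, which also takes part in mRNA transport in neural cells, stood at 1736, 1281 and 2275 TPM in Ctrl and 1986, 1979 and 2024 TPM in cKO. The 3 cKO libraries of Hnrnpa2b1 lay within the range of the Ctrl libraries. Next came Hnrnph1, which binds runs of G, at a mean of 1134 TPM, Hnrnpab, an A/B-type member, at 939 TPM, and Hnrnpk, which binds C-rich RNA through KH domains, at 865 TPM.

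Among SR genes, Srsf5 led with 501, 483 and 738 TPM in Ctrl and 644, 597 and 673 TPM in cKO. The spread of Srsf5 was within Ctrl, whose replicate 3 exceeded every other library. Srsf3, the smallest SR protein, which links splicing to mRNA export, followed with 452, 436 and 495 TPM in Ctrl and 494, 459 and 491 TPM in cKO, so that all 3 cKO values lay inside the Ctrl range. Srsf2, a component of nuclear speckles, averaged 359 TPM, Srsf7, which like Srsf3 couples to export, 313 TPM, and Srsf11, which contacts the U2 auxiliary factor, 263 TPM. Srsf12, an SR-related protein that opposes other SR proteins, was far below the rest at 22.7 TPM. Srsf9, the next above it, was 3.66-fold higher, and it was higher in all 6 libraries.

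Some neighbours in the order of levels were separate and most were not. Hnrnpa1 exceeded Hnrnpa2b1 by 1.51-fold and Hnrnpa2b1 exceeded Hnrnph1 by 1.66-fold, each in 6 of 6 libraries and with ranges that did not overlap. In contrast, 14 of the 19 neighbouring pairs in the Hnrnp order and 7 of the 10 in the Srsf order had ranges that overlapped across the 6 libraries, the top Srsf pair of Srsf5 and Srsf3 included. Within libraries, 7 of the 19 Hnrnp pairs and 7 of the 10 Srsf pairs kept the same order in all 6. For example, Hnrnpa0 and Hnrnpdl differed by 1.03-fold in their means, and Hnrnpa0 was the higher in 3 of 6 libraries.

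No Hnrnp or Srsf gene passed the test of a difference between cKO and Ctrl. At adjusted p under 0.05, 0 of 31 members were called by edgeR's quasi-likelihood test, beside 0.0737% of all genes tested. DESeq2 called 0 as well, beside 93 of 17323 genes. At an unadjusted p under 0.05, the count was again 0 of 31 by edgeR and 0 by DESeq2. The shares of all genes were 6.62% by edgeR (3.14% higher and 3.49% lower in cKO) and 4.98% by DESeq2. The groups overlapped for 31 of 31 members, whereas they did not overlap for 14.3% of all genes (7.35% with all cKO above and 6.93% with all cKO below). For 18 members, 10 Hnrnp and 8 Srsf, all 3 cKO libraries lay within the range of the Ctrl libraries, which was so for 38.5% of all genes.

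**Figure D2:**
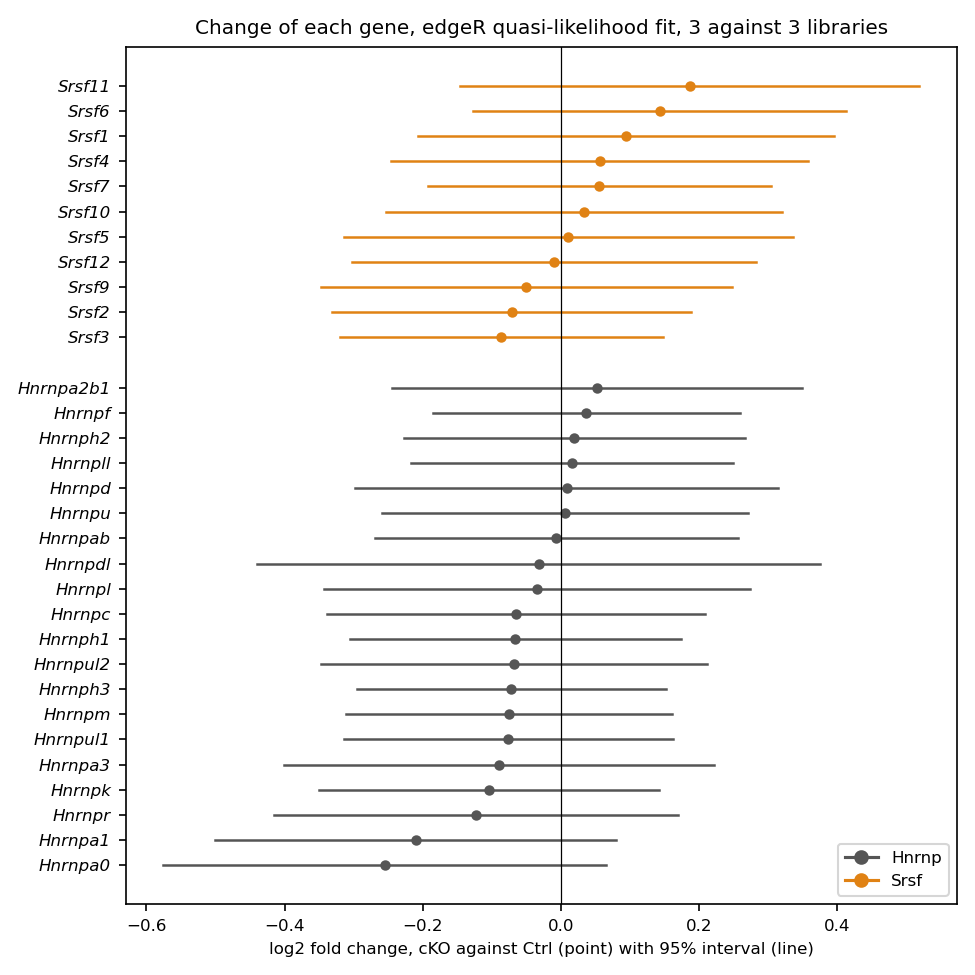
Log2 fold change of each tested member, cKO against Ctrl, with its 95% interval from the edgeR fit over 3 libraries a group (Hnrnp in grey, Srsf in orange). Every interval includes 0, and the outermost members are Hnrnpa0 at -0.26 and Srsf11 at 0.19.

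The intervals show how large a change these libraries could have missed. Log2 fold changes ran from -0.26 to 0.19, with SEs from 0.098 to 0.18 and a median SE of 0.12. Corrected for length and GC content of transcripts, Hnrnpr, whose protein is close to Syncrip, moved from -0.12 to -0.42 and became the lowest member (adjusted p = 0.443, edgeR). That correction used the longest annotated transcript of each gene, which for Hnrnpr was 21452 bases. The length that the quantification assigned to Hnrnpr averaged 2683 bases. Without that correction, the 95% intervals taken over all 31 members ran from a fold of 0.671 to a fold of 1.43. In that fit, larger changes in either direction lay outside the interval of each member.

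Hnrnpa0, which binds AU-rich elements in mRNA, had the lowest fold change. It was measured at 621, 789 and 678 CPM in Ctrl and 499, 655 and 595 CPM in cKO. cKO replicates 1 and 3 lay below every Ctrl library, but cKO replicate 2 lay above Ctrl replicate 1. The log2 fold change was -0.26 (SE 0.14, fold interval 0.671 to 1.05, adjusted p = 0.806, edgeR's quasi-likelihood test). Hnrnpa1 came next, at 1885, 2049 and 2309 CPM in Ctrl and 1603, 1905 and 1890 CPM in cKO, with a log2 fold change of -0.21 (SE 0.13, fold interval 0.707 to 1.06, adjusted p = 0.823, edgeR). For this gene cKO replicates 2 and 3 lay just above Ctrl replicate 1, so the groups overlapped. Hnrnpa1 has close relatives and processed copies in the genome, and reads shared with them could be divided in more than 1 way by the counting. Its estimated counts were whole numbers except for 25890.2 in cKO replicate 1, and the part of shared reads was not tested.

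The other abundant Hnrnp genes lay nearer to 0. Hnrnpa2b1, which had the highest fold change of the family, measured 1394, 1336 and 1757 CPM in Ctrl and 1557, 1520 and 1576 CPM in cKO (log2 fold change 0.05, SE 0.13, fold interval 0.844 to 1.27, adjusted p = 0.951, edgeR). Hnrnph1 stood at 902, 984 and 1018 CPM in Ctrl and 905, 934 and 935 CPM in cKO, a log2 difference of -0.07 (SE 0.11). All 3 cKO libraries of both genes fell inside the Ctrl range. Hnrnpab measured 829, 979 and 889 CPM in Ctrl and 836, 957 and 892 CPM in cKO, nearly the same values in both groups (fold interval 0.830 to 1.19). Hnrnpk measured 957, 948 and 1074 CPM against 884, 936 and 951 CPM, a log2 difference of -0.10 (SE 0.11, adjusted p = 0.893, edgeR), and only cKO replicate 3 reached the Ctrl values.

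Of the SR genes, Srsf11 had the highest fold change. It was measured at 347, 291 and 422 CPM in Ctrl and 434, 387 and 385 CPM in cKO. Ctrl replicate 3 lay within the cKO values and the other two Ctrl libraries below them, and the log2 fold change was 0.19 (SE 0.15, fold interval 0.904 to 1.43, adjusted p = 0.857, edgeR). Without Ctrl replicate 3 it was 0.33, at an unadjusted p under 0.05, as were 13.95% of all genes in that fit, and an adjusted p of 0.322 (edgeR). Srsf3 had the lowest fold change, with 470, 518 and 496 CPM in Ctrl and 476, 446 and 475 CPM in cKO (log2 fold change -0.09, SE 0.10, fold interval 0.801 to 1.11, adjusted p = 0.902, edgeR). Both extremes of the SR family overlapped their controls.

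Srsf5 measured 284, 315 and 403 CPM in Ctrl and 338, 317 and 356 CPM in cKO, a log2 difference of 0.01 (SE 0.14). Srsf2 measured 281, 347 and 337 CPM in Ctrl and 308, 305 and 305 CPM in cKO, a log2 difference of -0.07 (SE 0.11, adjusted p = 0.922, edgeR). Srsf7 measured 272, 272 and 315 CPM in Ctrl and 312, 288 and 293 CPM in cKO, a log2 difference of 0.06 (SE 0.11, adjusted p = 0.935, edgeR). In all of these genes every cKO library sat inside the Ctrl range.

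By subgroup, the A/B and D type Hnrnp genes (7 tested, 2 above and 5 below 0) had a median log2 fold change of -0.03, the G-run binders of the F/H type (4 genes) -0.02, Hnrnpu and its relatives, which bind chromatin-associated RNA (3 genes), -0.07, and Hnrnpl with Hnrnpll, which bind CA-rich RNA, -0.0091. Over the family, 6 Hnrnp genes lay above and 14 below 0, with a median of -0.07. Among Srsf genes 7 lay above and 4 below 0, with a median of 0.03, beside a median of 0.0027 over all genes tested, of which 50.6% lay above and 49.4% below 0. These counts are of estimates that did not pass the test. On group means of TPM the median over all genes was shifted to 0.14, and the family medians were 0.08 for Hnrnp and 0.16 for Srsf, so the sign of the Hnrnp median flipped while it stayed below that of all genes. Without Ctrl replicate 2 the TPM medians were 0.0819 over all genes, 0.0074 for Hnrnp and 0.0797 for Srsf.

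Summing a family weights its abundant members. The Hnrnp sum was 12099, 12583 and 14040 CPM in Ctrl and 11568, 12670 and 12605 CPM in cKO, or 12907 ± 1010 against 12281 ± 618 CPM (SD, n = 3). The Srsf sum was 2887, 2987 and 3451 CPM in Ctrl and 3275, 3128 and 3222 CPM in cKO, or 3108 ± 301 against 3208 ± 74.2 CPM. Both sums overlapped between groups, and Ctrl replicate 3 was the highest library in both. The log2 difference of the Hnrnp sums was -0.07, and -0.0070 without Ctrl replicate 3. Ctrl replicates 1 and 2 lay below the Ctrl mean, so the difference was further below 0 when either was left out. For Srsf it was 0.05, with -0.0047 without Ctrl replicate 1, 0.02 without Ctrl replicate 2 and 0.13 without Ctrl replicate 3. On the TPM scale the log2 differences of the sums were 0.06 for Hnrnp and 0.16 for Srsf, beside the shift of 0.14 over all genes.

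The ratio of the Hnrnp sum to the Srsf sum does not depend on the scaling of a library. On counts it was 4.19, 4.21 and 4.07 in Ctrl and 3.53, 4.05 and 3.91 in cKO, or 4.16 ± 0.0779 against 3.83 ± 0.268 (SD, n = 3), a log2 difference of -0.12. All 3 cKO values lay below the Ctrl values, narrowly for cKO replicate 2, and cKO replicate 1 stood apart from the other cKO libraries. The groups overlapped when Hnrnpa1 was left out of the sum, where the ratio was 3.54, 3.53 and 3.40 in Ctrl and 3.04, 3.44 and 3.33 in cKO. They also overlapped in TPM, at 4.45, 4.28 and 4.35 in Ctrl and 3.76, 4.30 and 4.12 in cKO. Without cKO replicate 1 the log2 difference of the ratio on counts was -0.06.

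**Figure D3:**
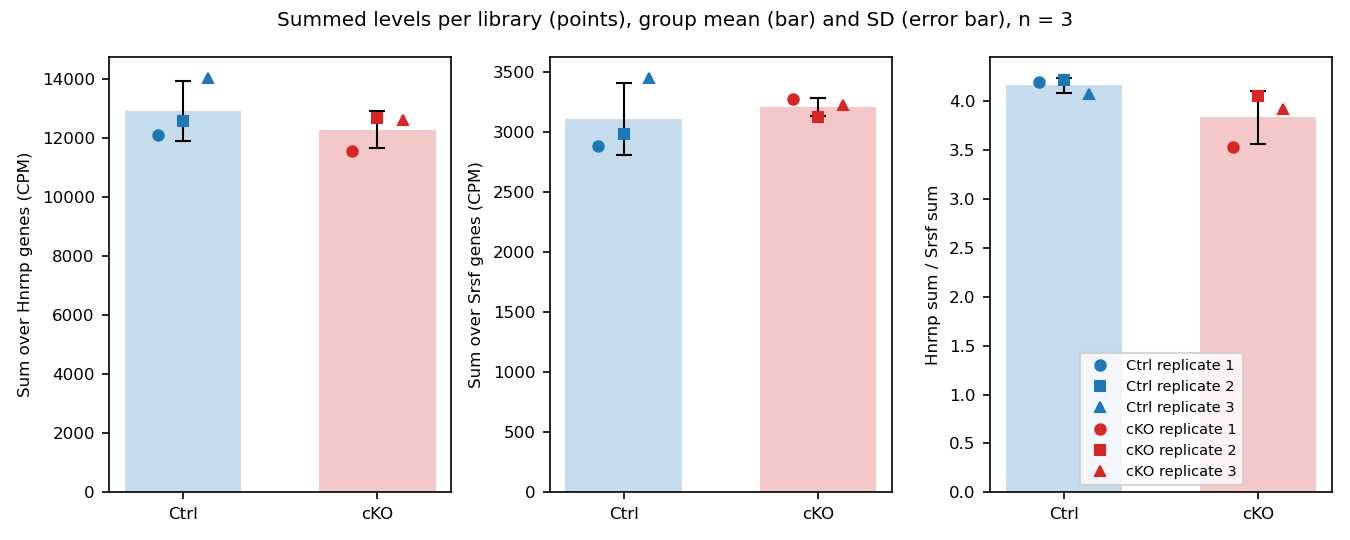
Summed CPM of the Hnrnp genes (left) and of the Srsf genes (middle), and the ratio of the sums (right), for each library as a point, with the group mean as a bar and the SD over 3 libraries as the error bar. The sums overlap between groups. The ratio, which was not tested, is lower in cKO, narrowly for replicate 2, with replicate 1 at 3.53 the lowest library. In TPM, or with Hnrnpa1 left out, the groups overlap for the ratio too.

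Between close relatives, ratios of TPM were compared within each library. Hnrnpa1 to Hnrnpa2b1 was 1.56, 2.0 and 1.51 in Ctrl and 1.25, 1.48 and 1.44 in cKO (1.69 ± 0.270 against 1.39 ± 0.123, SD, n = 3), and the groups did not overlap. The share of all gene pairs that separate in this way was not computed. For single genes in CPM, 14.3% of those tested did not overlap. Ctrl replicate 2, which set the highest ratio, was also the library with the lowest Hnrnpa2b1 level. There the quantification gave Hnrnpa2b1 a length of 2018 bases, against 1759 and 1758 in the other Ctrl libraries, and a longer length lowers TPM. The values of the groups nearest each other were 1.51 in Ctrl replicate 3 and 1.48 in cKO replicate 2. The part of length in this ratio was not tested. Hnrnph1 to Hnrnph2 was 6.87 ± 0.536 in Ctrl and 6.38 ± 0.223 in cKO, and Hnrnpl to Hnrnpll was 2.97 ± 0.698 and 2.85 ± 0.0812. Hnrnpdl to Hnrnpd, relatives of the D type, was 3.93 ± 0.541 in Ctrl and 3.82 ± 0.138 in cKO. Srsf5 to Srsf3 was 1.24 ± 0.220 and 1.32 ± 0.0397. In the last 4 pairs the means differed by less than the SD of the Ctrl libraries, and all 5 ratios are given without a test.

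The spread was not equal in the groups. The SD of log2 CPM averaged 0.163 over the members in Ctrl and 0.0810 in cKO, and it was larger in Ctrl for 29 of 31 members. The same held for other genes: among 6976 genes at or above the level of the least abundant member, the mean SD was 0.223 in Ctrl and 0.0903 in cKO, with the larger SD in Ctrl for 82.9%. Of the Ctrl libraries, replicate 3 was the highest for 19 members, replicate 2 for 10 and replicate 1 for 2, and replicate 2 was the lowest for 14, replicate 1 for 12 and replicate 3 for 5. Ctrl replicate 2 also stood apart in the FPKM columns, whose sum was 522819 against 424951 to 446619 in the other libraries. The part of these libraries in the results was not tested beyond leaving out each in turn.

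Splicing of the splicing factors themselves was approached through effective transcript length. This is the length that the quantification assigned to a gene in a library, given its mix of isoforms. For the test it was obtained as count divided by TPM and centred on each library's median. Lengths in bases were instead obtained from the count, the FPKM and the total count of the library. Mean effective lengths of members ran from 1018 bases for Srsf9 to 6606 bases for Hnrnpd. No member passed adjusted p under 0.05 in limma on the log2 scale (0 of 31, beside 0% of 11766 genes), and 0 of 31 passed an unadjusted p under 0.05, beside 2.18%. Without Ctrl replicate 2 the unadjusted count was 2 (Hnrnpa2b1 and Hnrnph1, beside 3.93% of all genes), and without Ctrl replicate 3 it was 1 (Srsf4, beside 3.42%). The groups did not overlap for 1 member, Hnrnpdl, beside 3.94% of all genes. A length in use reports only changes that alter the average length of transcripts, and exons of equal length that replace each other would leave it as it was. It also varies for other reasons: Hnrnpa0, with 1 annotated transcript, ranged by 0.0196 on the log2 scale. The mean difference for Hnrnpdl was 0.0135, so differences this small cannot be read as a change of isoforms.

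Hnrnpdl, a relative of the mRNA decay factor Hnrnpd, had effective lengths of 2639, 2631 and 2646 bases in Ctrl and 2684, 2646 and 2662 bases in cKO. Relative to other genes, all cKO libraries were longer than all Ctrl libraries by a mean log2 difference of 0.01 (SE 0.0072, adjusted p = 0.952, limma). Srsf4, one of the long SR proteins, gave a log2 difference of 0.02 (SE 0.012, adjusted p = 0.952, limma), and Srsf12 gave -0.01 (SE 0.0079, adjusted p = 0.952, limma). These are the 3 members with the smallest p for length.

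**Figure D4:**
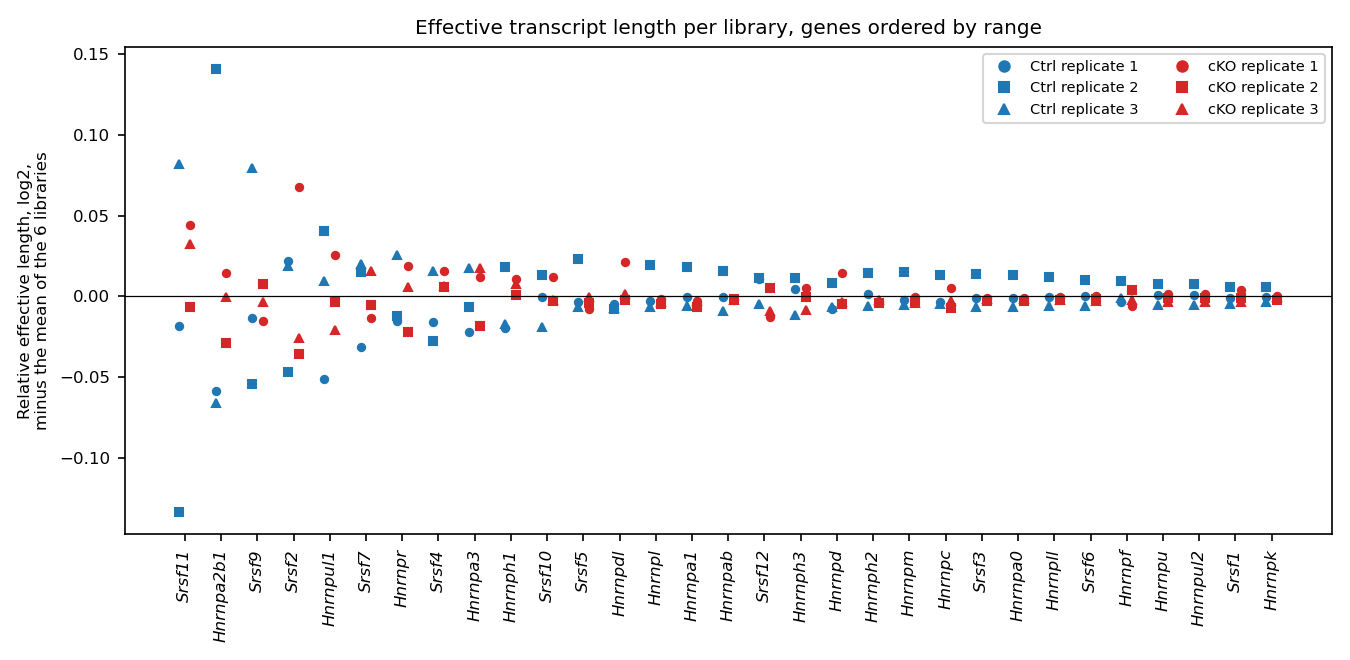
Relative effective length of each member in each library (log2, centred on the gene's mean over the 6 libraries), with genes ordered by their range. For 25 of 31 members the range was under 0.05, and Srsf11 and Hnrnpa2b1 on the left spread most, with Ctrl replicate 2 at the extreme of both.

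Most members kept a stable length across libraries, with a median range of 0.02 on the log2 scale beside 0.03 for all genes, and 25 of 31 ranged by under 0.05. The exceptions, chosen after their values were seen, were led by Srsf11, with 3178, 2932 and 3422 bases in Ctrl and 3315, 3207 and 3307 bases in cKO. Ctrl replicate 2 was the shortest and Ctrl replicate 3 the longest, with all cKO libraries between them. Hnrnpa2b1 ran the other way, with 1759, 2018 and 1758 bases in Ctrl and 1848, 1797 and 1840 bases in cKO, so that Ctrl replicate 2 was the longest. The ranges of Srsf11 and Hnrnpa2b1 were 0.22 and 0.21 on the log2 scale, followed by 0.13 for Srsf9 and 0.11 for Srsf2.

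The wider splicing machinery was read from a list of 67 genes outside the families, of which 66 were tested (all but Srpk3). None passed adjusted p under 0.05 by edgeR, and 1 passed an unadjusted p under 0.05, beside 6.62% of all genes. The log2 fold changes were positive for 23 and negative for 43, beside 50.6% and 49.4% of all genes, with a median of -0.06. The SR-like proteins and SR kinases (17 genes) had a median of 0.04 and hnRNP proteins under other symbols (16 genes) a median of -0.0060. The U1, U2 and Sm core (24 genes) had a median of -0.13, with 3 positive and 21 negative values, and the U4/U6.U5 genes (9 genes) a median of -0.07, with 2 positive and 7 negative. The difference between the snRNP genes and the Hnrnp and Srsf genes was not tested.

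Sf3a2, a subunit of the U2 snRNP, was the gene at an unadjusted p under 0.05. It measured 39.7, 53.1 and 33.8 CPM in Ctrl and 29.0, 33.4 and 30.8 CPM in cKO, with all cKO libraries below all Ctrl libraries (log2 fold change -0.44, SE 0.17, adjusted p = 0.645, edgeR). Snrpd3, a protein of the Sm ring, was at 47.7 ± 3.84 CPM in Ctrl and 40.4 ± 1.70 CPM in cKO (SD, n = 3), and Prpf6, which bridges the parts of the tri-snRNP, at 109 ± 5.40 and 94.7 ± 3.51 CPM. For both of these, and for the SR-like splicing activator Tra2b, the groups did not overlap either, as for 14.3% of all genes, and the adjusted p was 0.763 for Snrpd3 and 0.795 for Prpf6 (edgeR). Of the positive values, those with the smallest p were Srek1, an SR-related protein (log2 fold change 0.29, SE 0.17, adjusted p = 0.819, edgeR), and the polypyrimidine tract-binding proteins Ptbp3 (0.19, SE 0.19) and Ptbp1 (0.10, SE 0.11), the latter a repressor of neuronal exons in progenitors. In these 3 genes the groups overlapped.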

How the data were processed

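RNA-seq of E18.5 mouse cortex was analysed in 3 Ctrl and 3 cKO libraries, grouped by their labels. The authors extracted RNA with Trizol, made mRNA libraries and sequenced them on a DNBSEQ instrument, and the submitters' processing notes name HISAT2 2.2.1, Bowtie2 2.4.5, RSEM 1.3.1 and the builds GRCm38 and mm10, with no role for each. The annotation and strand setting are not given in the sources used here. The table deposited by the authors holds estimated counts (expected counts, 89.4% of them whole), TPM and FPKM for each library.

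Counts were rounded and tested with edgeR 4.0.16 (filterByExpr, TMM, quasi-likelihood test, no covariate), with Benjamini-Hochberg adjustment over all 13570 genes and a threshold of 0.05. CPM values use TMM-scaled totals. Intervals for folds are 95% intervals of the fit. Effective length, log2(count / TPM) centred per library, was tested with limma 3.58.1 on genes with a mean count of at least 50 and a mean TPM of at least 1. Lengths printed in bases were computed from counts and FPKM and were not tested. The family medians, sums and ratios were described without a test. The floor of 3 counts covers counting error only. The edgeR and limma fits, DESeq2, the replicate block and the length and GC correction were tested on simulated data with known changes. The trend simulated for that correction followed GC content only, so its length part was not tested. Promoters were taken from RefSeq tables matched by gene identifier. Figures were drawn with matplotlib 3.10.9 under Python 3.11.15, and fits ran in R 4.3.3.

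Genes named with full values were the 5 most abundant members of each family, the largest rise and fall in each, members with an unadjusted p under 0.05 (there were none), the 3 members with the smallest p for length, Ybx1, and the 3 rises and 3 falls with the smallest p among other splicing genes. The members and lists were chosen with earlier results of these data known. Pairs of replicates did not agree within sampling noise, so no library was counted as a duplicate. Alternatives were RLE size factors, DESeq2 1.42.0, other filters, TMM without ribosomal protein genes, the replicate block, a length and GC correction (mgcv 1.9.3), TPM in place of CPM, FPKM in place of TPM for length, and leaving out each library. Leaving Hnrnpa1 out of the sum was added after seeing the data.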

Additional observations from a re-analysis of the deposited data

How the results depend on the processing

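No Hnrnp or Srsf gene passed adjusted p under 0.05 in any of the 14 alternative fits, where the smallest adjusted p of a member was 0.182 (edgeR, length and GC corrected in a fit that also held the replicate block). The number of genes called across the table varied more: 10 in the fit reported, 93 with DESeq2, 153 with the length and GC correction, 159 with that correction and the replicate block, and 8 to 122 when each library was left out, with 122 without Ctrl replicate 2 and 19 without Ctrl replicate 3. Members at an unadjusted p under 0.05 numbered 2 with the length and GC correction (Hnrnpa1 and Hnrnpa3), beside 12.5% of all genes, 4 when the replicate block was added (also Hnrnpa0 and Hnrnpr), beside 14.1%, and 0 to 1 when each library was left out (Srsf11 without Ctrl replicate 3, beside 13.95% of all genes). The Hnrnp median lay between -0.08 and -0.01 and the Srsf median between 0.0082 and 0.13 when each library was left out, the last without Ctrl replicate 3. With the length and GC correction they were -0.10 and -0.0018. In TPM the summed levels differed by 0.0574 (Hnrnp) and 0.16 (Srsf). On counts, the log2 difference of the ratio of the sums ranged from -0.16 to -0.06 over the libraries left out. The cause of these shifts was not tested.

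Several log2 fold changes near 0 changed sign. Srsf5 was -0.0043 with no filter on low counts, -0.0316 once corrected for length and GC, -0.0242 with the block too, and -0.0939 to 0.168 when each library was left out. Hnrnpab was 0.0213 once corrected for length and GC, 0.0189 with the block too, and -0.0611 to 0.0589 with each library left out. Hnrnpa2b1 ranged from -0.0222 to 0.184, Hnrnpdl from -0.191 to 0.160, Srsf4 from -0.0258 to 0.185 and Srsf12 from -0.0792 to 0.0843 over the libraries left out. Effective length gave no gene past adjusted p under 0.05 in limma under any of its alternatives, and 0 to 2 members at an unadjusted p under 0.05.

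The labels number the replicates in both groups alike but tie no number to a litter or batch. Deviations from the group means correlated at 0.0884, 0.0615 and 0.23 for libraries with the same number, so the numbers were not taken as pairs, although 6 of 6 libraries correlated best with their own number. The replicate block called 11 genes and 0 members (edgeR), and it changed the call of no member.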
